A study of Mus musculus with 9 samples.

Results

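The transcripts described here come from 10 negative feedback and output genes of extracellular signal-regulated kinase (ERK), the dual-specificity phosphatases Dusp4, Dusp5 and Dusp6, the Sprouty genes Spry1, Spry2 and Spry4, the Sprouty-related gene Spred1, the ETS transcription factor genes Etv4 and Etv5, and Phlda1. They were chosen by name from the 55416 genes of the deposited tables, and all 10 were among the 13679 genes with enough reads to be tested. ERK is the last kinase of a cascade that runs from growth factor receptors through RAS, RAF and MEK. Active ERK raises the transcription of genes whose products act back on the cascade: DUSP phosphatases remove phosphate from ERK itself, Sprouty and Spred proteins restrain the steps between receptor and RAF, and ETV factors carry the signal on to further genes. In cells of the bone lineage this pathway is known to act downstream of fibroblast growth factor receptors and of extracellular phosphate.

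RNA sequencing was performed on MC3T3-E1, a murine calvarial pre-osteoblast line with wild-type genotype, of which the study used a single subclone. Differentiation of all cultures took place in medium supplemented with 10 mM β-glycerophosphate (BGP), dexamethasone and ascorbic acid. For this medium the labels give a longer exposure to BGP than the study's methods, by which BGP was withdrawn before the treatment at day 27. The study also states that the basal medium of every condition, Control included, held sodium phosphate. At day 27 the cells received 4 mM BGP, an organic phosphate, or 4 mM NaHPO4, a mixture of sodium phosphate salts that serves as inorganic phosphate, for 16 h, while Control cells received neither. RNA was harvested at day 28, and each condition had 3 libraries. The labels number these 1 to 3 without saying that they came from separate cultures. The p-values therefore rest on the spread between libraries, which the edgeR test estimates for each gene with help from all tested genes.

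Library totals lay between 21390839 and 28234404 counts. All 10 osteoblast and osteocyte markers examined passed the filter, Sost with 9 to 36 counts per library. Of the other lists, endothelial markers stayed at or below 4 counts per gene. Of 5 adipocyte markers Fabp4 alone was tested (268 to 406 counts), of 5 muscle markers Des alone (170 to 229 counts, with Myod1, Myog and Myf5 at 0 in every library), and of 5 macrophage and osteoclast markers Csf1r (15 to 27 counts) and Ctsk (6060 to 7324 counts), with Ptprc at or below 1 count. The muscle list summed to 9.18 to 10.1 CPM (read counts scaled to a common library size) in Control, 7.80 to 8.63 CPM in BGP and 7.46 to 7.83 CPM in NaHPO4, and the macrophage and osteoclast list to 289 to 296, 274 to 286 and 249 to 263 CPM. The adipocyte list summed to 12.1 to 15.7, 13.0 to 14.4 and 9.86 to 14.2 CPM. Summed osteoblast and osteocyte markers were 55030 to 58750 CPM in Control, 53750 to 57390 CPM in BGP and 49100 to 52360 CPM in NaHPO4. Of 5 chondrocyte markers 4 were tested, and their list summed to 250 to 308 CPM in Control, 341 to 447 CPM in BGP and 186 to 266 CPM in NaHPO4, most of it from the collagen gene Col2a1 (142 to 403 CPM over all libraries) and from Sox9 (34.4 to 43.3 CPM), while Acan did not exceed 1 count. The part of these shifts in the differences below was not tested. In bulk RNA, fewer cells expressing a gene and less of its RNA per cell cannot be told apart.

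The members spanned a wide range of abundance. Per kilobase of annotated exon, Spred1 had the highest level in Control at 18.4 ± 1.20 CPM per kb (SD, n = 3), followed by Dusp6 at 13.5 ± 2.04 and Spry1 at 7.80 ± 1.63 CPM per kb. The library ranges of these 3 genes were separate from each other and from those of the remaining genes. Phlda1, Dusp5, Etv5, Etv4 and Spry2 formed a middle group between 2.22 and 1.39 CPM per kb, in which each gene overlapped the next. Dusp4 at 0.167 ± 0.0376 and Spry4 at 0.106 ± 0.0240 CPM per kb closed the order, and with 8 to 15 and 12 to 21 counts per Control library they had the least reads behind their values. Within BGP, Dusp6 stood above Spred1, at 31.9 ± 3.18 against 23.3 ± 1.69 CPM per kb with separate ranges. Within NaHPO4 the corresponding levels of 24.6 ± 1.74 and 23.3 ± 1.25 CPM per kb overlapped. Using the length of the longest transcript instead, Etv5 and Etv4 preceded Dusp5 in Control and the ranges of Dusp4 and Spry4 overlapped.

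Before the responses, the 250 bases upstream of the annotated start are shown for Dusp6 and Etv4, which rose with both phosphates, and Dusp5, which differed between them. Egr2, a transcription factor gene of the same pathway, is shown beside Dusp5 because its window also holds a CArG box. It too was higher with BGP than with NaHPO4, but unlike Dusp5 it was also called higher with BGP than in Control. The windows were read from GRCm39 at chr10:99098818-99099067 (plus strand, Dusp6), chr11:101676198-101676447 (minus strand, Etv4), chr19:53517282-53517531 (plus strand, Dusp5) and chr10:67373442-67373691 (plus strand, Egr2). Capitals mark the short ETS core CGGAA or its reverse complement TTCCG in Dusp6 and Etv4, and CArG boxes, the element that serum response factor binds, in Dusp5 and Egr2.
Dusp6: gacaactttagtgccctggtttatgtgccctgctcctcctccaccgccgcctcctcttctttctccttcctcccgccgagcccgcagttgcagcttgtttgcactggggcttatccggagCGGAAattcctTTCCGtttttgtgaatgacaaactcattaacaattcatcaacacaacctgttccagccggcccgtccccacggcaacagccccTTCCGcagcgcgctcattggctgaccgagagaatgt
Etv4: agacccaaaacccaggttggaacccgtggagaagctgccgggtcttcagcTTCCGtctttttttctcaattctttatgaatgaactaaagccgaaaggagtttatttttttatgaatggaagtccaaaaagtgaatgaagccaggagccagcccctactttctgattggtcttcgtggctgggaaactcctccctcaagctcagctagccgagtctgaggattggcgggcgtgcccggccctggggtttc
Dusp5: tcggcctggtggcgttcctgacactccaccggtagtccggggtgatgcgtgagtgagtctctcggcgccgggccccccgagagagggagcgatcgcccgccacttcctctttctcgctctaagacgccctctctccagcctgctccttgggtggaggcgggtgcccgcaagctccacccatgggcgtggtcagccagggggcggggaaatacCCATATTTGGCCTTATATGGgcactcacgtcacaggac
Egr2: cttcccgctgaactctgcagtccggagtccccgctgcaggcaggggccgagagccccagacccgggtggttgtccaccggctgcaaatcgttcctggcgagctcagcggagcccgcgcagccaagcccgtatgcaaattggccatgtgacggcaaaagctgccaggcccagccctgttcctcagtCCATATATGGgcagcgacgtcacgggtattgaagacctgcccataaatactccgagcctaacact

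Motifs were searched on both strands from 250 bases before to 50 bases after the start, in 13631 tested genes. Dusp5 was the only member with a CArG box, and it held a pair of them side by side, at -38 and -28 from the start. A CArG box stood in 1.33% of all windows, and among 60 other pathway genes scanned it was found in 2, of which Egr2, with its box at -65, is shown. The windows of Egr1, Fos and Ier2, which were also called higher with BGP than with NaHPO4, held no CArG box. The ETS core CGGAA occurred in 7 of the 10 members, against 44.9% of all windows. Dusp6 had 3 matches, at -130, -119 and -36, the first pair in opposite orientation, and Etv4 had 1 at -200. The longer ETS site CCGGAAG, which contains that core, was in 0 of the 10 members and in 14.9% of windows. The cyclic AMP response element TGACGTCA was likewise in 0 members, against 3.01% of windows. The AP-1 site TGANTCA (5.44% of windows) and the letters TATAAA (8.91%) were matched in Etv5 alone among the members, and the EGR site GCGNGGGCG (8.59%) in Phlda1 alone. A match describes letters in the window and does not show binding, and no cause of a response is read from it. Responses of genes with a CArG box are counted in the last section, without a test.

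**Figure D1:**
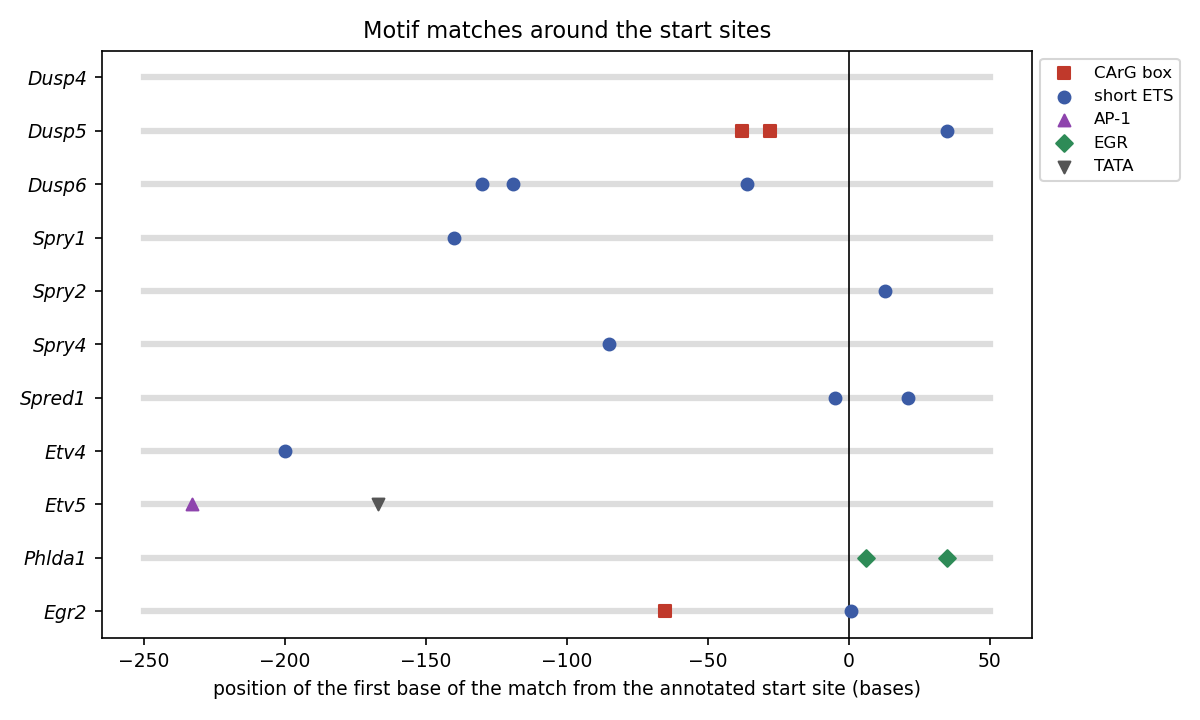
Motif matches from 250 bases before to 50 bases after the annotated start of each gene, the x axis giving the position of the first base of each match and symbols the motif. CArG boxes appear in Dusp5 and Egr2, between -65 and -28, and Dusp6 carries 3 short ETS cores.

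The first question was which feedback genes responded to organic phosphate. BGP raised 7 of the 10 genes at an adjusted p below 0.05, while 1.86% of all tested genes were higher and 0.665% lower. It lowered 0 of the 10. A further threshold of the study, an absolute log2 fold change above 0.5, was met by Dusp6, Etv4, Phlda1 and Spry4, that is 4 of 10, where 0.556% of all tested genes were called in either direction and 0.482% were called higher.  BGP and Control libraries did not overlap for 9 of the 10 genes, all higher in BGP, against 9.74% of all tested genes. The median log2 fold change of the 10 was 0.62, beside -0.004321 over all tested genes. The genes were chosen with earlier results of these libraries known, so these counts are no independent evidence of direction.

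NaHPO4 raised 5 of the 10 genes at an adjusted p below 0.05, against 3.43% of all tested genes, and lowered 0, against 3.95%. Dusp6, Etv4 and Phlda1 also met the size threshold, 3 of 10 against 0.716% of tested genes in either direction and 0.446% in the upward one. Libraries were separate for 5 genes, all higher in NaHPO4, against 11.6% of tested genes. The median log2 fold change was 0.32, beside 9.75e-05 over all tested genes. DESeq2, limma and edgeR's likelihood ratio and exact tests also found 0 members lower with either phosphate, and at an unadjusted p below 0.05 in edgeR 0 were lower with BGP and 1, Dusp5, with NaHPO4. Both comparisons use the same 3 Control libraries, so their values are given side by side and are not independent of each other.

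**Figure D2:**
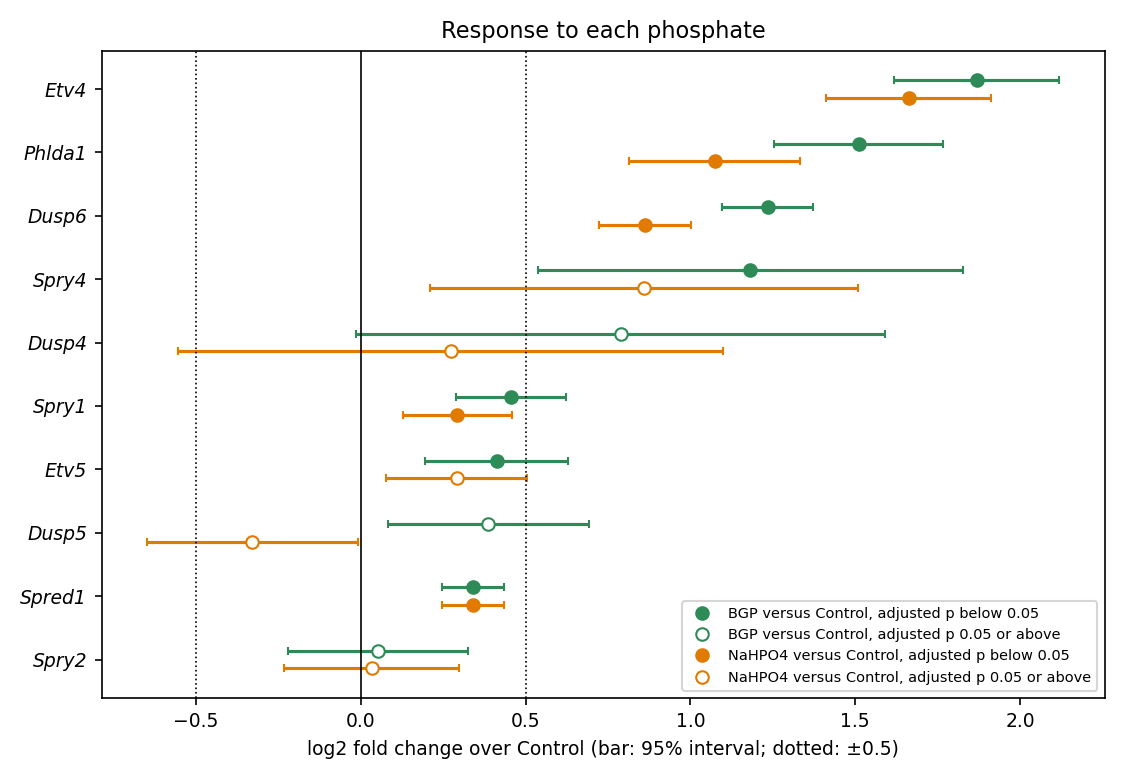
Log2 fold change of each gene over Control (x axis) after BGP (green) and NaHPO4 (orange), with 95% intervals as bars and filled points for an adjusted p below 0.05; dotted lines mark 0.5 in either direction. Etv4, Phlda1 and Dusp6 lie beyond 0.5 with both phosphates, whereas Dusp5 lies on opposite sides of 0.

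Dusp6 (chr10:99086564-99103361, plus strand) encodes a cytoplasmic phosphatase that is selective for ERK. Its level was 45.5, 38.98 and 52.8 CPM in Control replicates 1 to 3, 119, 108 and 97.3 CPM with BGP, and 83.5, 77.5 and 89.3 CPM with NaHPO4. The 3 conditions did not overlap: every BGP library was above every NaHPO4 library, and these were above every Control library. In the edgeR quasi-likelihood test the rise was 2.35-fold with BGP (log2 fold change 1.23, SE 0.0683, adjusted p = 3.83e-16) and 1.82-fold with NaHPO4 (0.86, SE 0.0687, adjusted p = 1.48e-11). Both rises passed an adjusted p below 0.05 in all 19 alternative fits, and with NaHPO4 the rise was under the stricter size threshold of a log2 fold change of 1.

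Dusp5 (chr19:53517532-53530862, plus strand) encodes an ERK-selective phosphatase of the nucleus. Control replicates 1 to 3 had 3.93, 4.57 and 5.275 CPM, BGP replicates 6.81, 6.02 and 5.286 CPM, and NaHPO4 replicates 3.64, 4.18 and 3.16 CPM. BGP libraries lay just above Control and clear of NaHPO4, while NaHPO4 and Control overlapped. Neither difference from Control passed the edgeR test: the log2 fold change was 0.39 with BGP (SE 0.151, adjusted p = 0.215) and -0.33 with NaHPO4 (SE 0.157, adjusted p = 0.234).

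Dusp4 (chr8:35274442-35287048, plus strand), which encodes another nuclear phosphatase of MAP kinases, had few reads. It had 0.374, 0.479 and 0.591 CPM in Control, 1.08, 0.764 and 0.688 CPM with BGP, and 0.692, 0.597 and 0.469 CPM with NaHPO4, from 8 to 24 counts per library. The BGP libraries were above Control but overlapped NaHPO4. With log2 fold changes of 0.79 for BGP (95% interval -0.0138 to 1.59, adjusted p = 0.386, edgeR) and 0.27 for NaHPO4 (-0.55 to 1.099, adjusted p = 0.784), no difference was detectable at this depth.

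Spry4 (chr18:38719300-38736025, minus strand) is the member of the Sprouty group with the largest fold change. Sprouty proteins are membrane-associated inhibitors of signaling from growth factor receptors to RAF. Levels of Spry4 were 0.748, 0.522 and 0.827 CPM in Control, 1.71, 1.80 and 1.29 CPM with BGP, and 1.49, 1.05 and 1.29 CPM with NaHPO4. Both phosphates were thus above Control in every library and overlapped each other. BGP gave a 2.27-fold rise (log2 fold change 1.18, SE 0.318, adjusted p = 0.0337, edgeR), and NaHPO4 a log2 fold change of 0.86 (SE 0.320) that missed the threshold (adjusted p = 0.103). The BGP call was lost, at adjusted p values of 0.0883, 0.159 and 0.0532 without Control replicate 1, 2 or 3, and of 0.130 and 0.142 without BGP replicate 1 or 2. With 12 to 41 counts per library, Spry4 was the called member with the least reads.

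Spry1 (chr3:37693897-37698755, plus strand) had 37.5, 29.3 and 44.8 CPM in Control, 57.3, 48.1 and 48.3 CPM with BGP, and 46.0, 43.7 and 47.7 CPM with NaHPO4. BGP libraries were above both other conditions, and NaHPO4 overlapped Control through the highest Control library. The log2 fold change was 0.46 with BGP (SE 0.0825, adjusted p = 0.000485, edgeR) and 0.29 with NaHPO4 (SE 0.0819, adjusted p = 0.0198). In DESeq2 neither passed, at 0.109 and 0.315. The NaHPO4 call was also lost without Control replicate 1 (adjusted p = 0.0549, edgeR) or 2 (0.249), where the log2 fold change without the latter was 0.15, and without NaHPO4 replicate 1 (0.0516) or 3 (0.0868).

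Spry2 (chr14:106128766-106136446, minus strand) had 8.41, 5.83 and 7.28 CPM in Control, 8.39, 7.73 and 6.19 CPM with BGP, and 6.77, 7.93 and 7.26 CPM with NaHPO4. All 3 conditions overlapped. Its log2 fold change was 0.05 with BGP (95% interval -0.22 to 0.32, adjusted p = 0.918, edgeR) and 0.03 with NaHPO4 (-0.23 to 0.30, adjusted p = 0.931), and its sign turned in both comparisons without Control replicate 2, to -0.08 and -0.09.

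Spred1 (chr2:116951524-117018277, plus strand) encodes a protein that brings the RAS inactivator neurofibromin to the membrane. It was measured at 137, 137 and 153 CPM in Control, 192, 184 and 166 CPM with BGP, and 192, 175 and 175 CPM with NaHPO4. Both phosphates were above Control in all libraries, with nearly the same means. The log2 fold change was 0.34 with each, with an SE of 0.0464 and an adjusted p of 4.25e-06 for BGP, and an SE of 0.0460 and an adjusted p of 1.74e-06 for NaHPO4 (edgeR). These small rises passed the test in all 19 alternative fits but stayed under the size threshold.

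Etv4 (chr11:101660568-101676197, minus strand), a member of the PEA3 family of ETS factors, had the largest fold change of the 10 with either phosphate. Levels were 4.67, 4.05 and 5.196 CPM in Control, 18.4, 17.6 and 14.96 CPM with BGP, and 15.4, 12.1 and 16.8 CPM with NaHPO4. Every phosphate library was well above the highest Control library, and BGP and NaHPO4 overlapped. The rise was 3.65-fold with BGP (log2 fold change 1.87, SE 0.123, adjusted p = 6.01e-14, edgeR) and 3.16-fold with NaHPO4 (1.66, SE 0.123, adjusted p = 2.22e-12), and both passed the test in all 19 alternative fits.

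Etv5 (chr16:22200052-22259662, minus strand), of the same PEA3 family, moved far less. It had 10.6, 9.09 and 13.8 CPM in Control, 14.6, 15.8 and 14.3 CPM with BGP, and 14.6, 12.8 and 13.7 CPM with NaHPO4. BGP libraries were above Control, with Control replicate 3 close below, and NaHPO4 overlapped both. The log2 fold change was 0.41 with BGP (SE 0.107, adjusted p = 0.0271, edgeR) and 0.29 with NaHPO4 (SE 0.106, adjusted p = 0.0930). The call with BGP was lost without Control replicate 1 (adjusted p = 0.123) or 2 (0.218) or BGP replicate 1 (0.0684) or 2 (0.138), whereas NaHPO4 passed without Control replicate 3 (0.00281, log2 fold change 0.48).

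Phlda1 (chr10:111342147-111344506, plus strand), which encodes a pleckstrin homology-like domain protein, had 4.96, 3.61 and 6.14 CPM in Control, 14.7, 14.6 and 13.0 CPM with BGP, and 9.61, 10.9 and 10.6 CPM with NaHPO4. As for Dusp6, the 3 conditions were separate in the order Control, NaHPO4, BGP. It rose 2.85-fold with BGP (log2 fold change 1.51, SE 0.126, adjusted p = 3.87e-11, edgeR) and 2.11-fold with NaHPO4 (1.07, SE 0.128, adjusted p = 1.59e-07), and both rises passed the test in all 19 alternative fits.

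**Figure D3:**
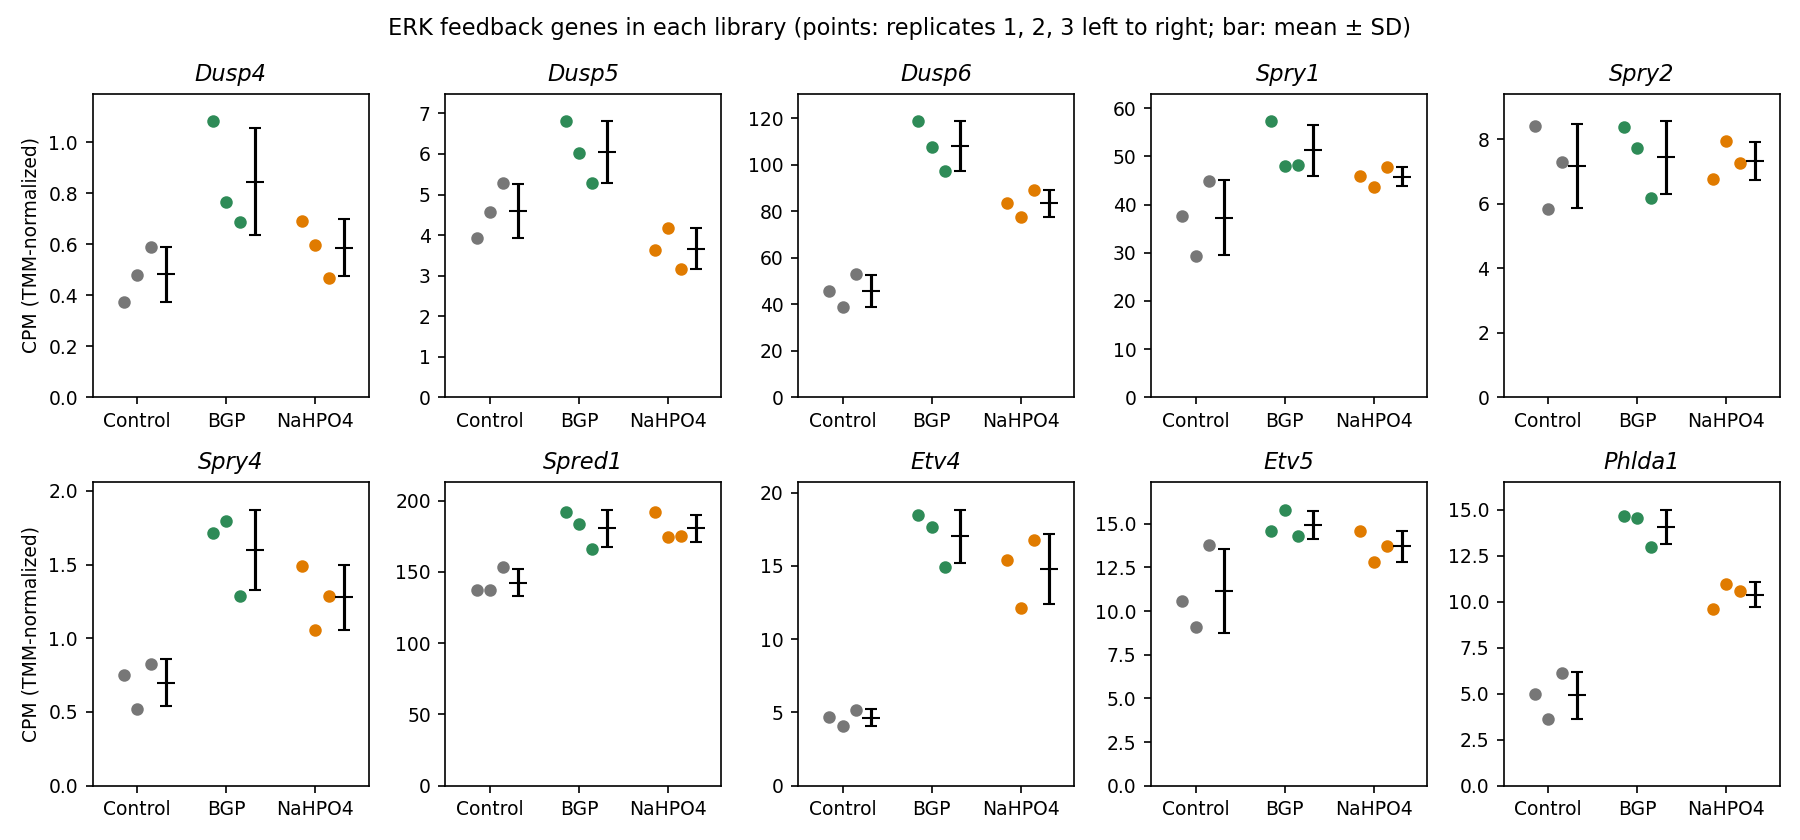
TMM-normalized CPM of each gene in every library (y axis, from 0), with 3 points per condition for replicates 1 to 3 from left to right and a bar for the mean and SD. Control, NaHPO4 and BGP are separate for Dusp6 and Phlda1, and Spry2 overlaps in all conditions.

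Replicates within a condition also varied together across these genes. Control replicate 3 was the highest Control library for 9 of the 10 members, all but Spry2, and Control replicate 2 the lowest for 7. Over all tested genes these libraries were highest in 32.7% and lowest in 34.7%. BGP replicate 3 was the lowest BGP library for 9 members, against 33.0% of all tested genes, and BGP replicate 1 the highest for 8, against 33.5%. In NaHPO4 no library was highest or lowest for more than 6. The members of a library share its RNA and are not independent, so these counts carry no test.

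Shares were also computed among the members alone, without relatives such as Etv1, Dusp7 and Spred2, so they are not shares of whole families. Of the summed Etv4 and Etv5 level per kilobase, Etv4 made up 51.1%, 51.3% and 47.2% in Control, 74.9%, 72.5% and 71.2% with BGP, and 71.5%, 69.1% and 74.3% with NaHPO4. Etv4 thus went from about an equal share to the larger one with either phosphate, with no overlap with Control. Dusp6 made up 86.9% ± 1.77 (SD, n = 3) of the sum of Dusp4, Dusp5 and Dusp6 in Control, 92.1% ± 0.280 with BGP and 93.6% ± 1.23 with NaHPO4, again above Control in every library. Spred1 made up 66.6% ± 3.50 of the sum of Spry1, Spry2, Spry4 and Spred1 in Control, 65.2% ± 1.30 with BGP and 67.5% ± 1.40 with NaHPO4, where the ranges overlapped. Shares follow from the levels above and were not tested.

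**Figure D4:**
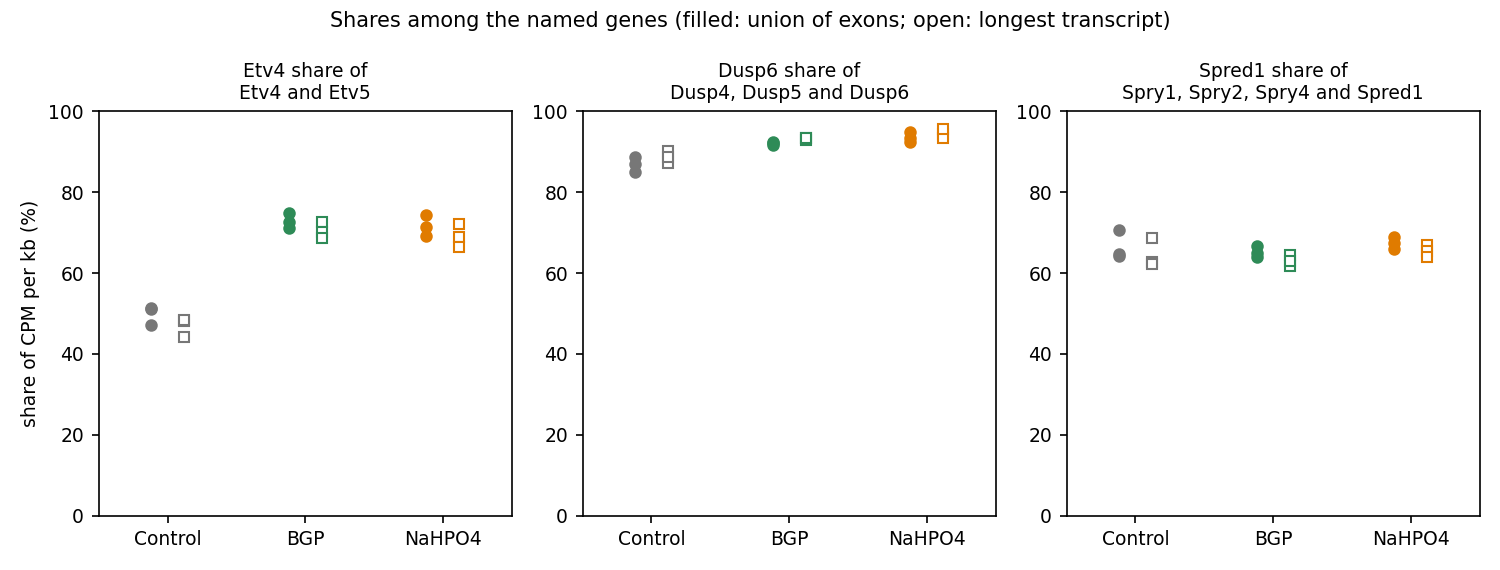
Share of a gene in the summed CPM per kb of the members named above each panel (y axis, percent), for each library of the 3 conditions, with filled circles for lengths from the union of exons and open squares for the longest transcript. The Etv4 share is between 47.2% and 51.3% in Control and between 69.1% and 74.9% with either phosphate on the exon union.

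Next, BGP was compared directly with NaHPO4 at the same dose and time. This question is separate from a response to either one. Dusp5 was the only member called, 1 of 10 against 0.585% of all tested genes in either direction and 0.38% in the upward one, with an expression 1.64-fold higher in BGP (log2 fold change 0.72, SE 0.152, 95% interval 0.41 to 1.03, adjusted p = 0.00212, edgeR). Its libraries, given above, stood apart, the lowest BGP library at 5.286 CPM and the highest NaHPO4 library at 4.18 CPM. This difference passed the test in all 19 alternative fits, with log2 fold changes from 0.62 to 0.82. The Control mean of 4.59 ± 0.674 CPM lay between those of BGP, 6.04 ± 0.762 CPM, and NaHPO4, 3.66 ± 0.508 CPM (SD, n = 3), and neither difference from Control passed the test. The summed chondrocyte markers were also higher in BGP than in NaHPO4 libraries, as given above, and their part in this difference was not tested.

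Dusp6 and Phlda1 passed the test below the size threshold. For Dusp6, BGP exceeded NaHPO4 1.29-fold (log2 fold change 0.37, SE 0.0634, adjusted p = 0.000127, edgeR), which was lost only in DESeq2 (adjusted p = 0.0700). Phlda1 was 1.35-fold higher (0.44, SE 0.111, adjusted p = 0.0118), a call lost with limma (adjusted p = 0.0515) and without BGP replicate 1 (0.0701), BGP replicate 2 (0.0668) or NaHPO4 replicate 1 (0.0574). In all, 3 of 10 genes were higher by the test, against 3.33% of tested genes, and 0 lower, against 2.05%, with 0 lower also at an unadjusted p below 0.05 and in DESeq2 and limma. Libraries were separate for 4 genes, Spry1 included, against 10.8%. The median log2 fold change was 0.26, beside -0.001847 over all tested genes.

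The remaining 7 genes did not pass between BGP and NaHPO4, and the width of their intervals varied. For Spred1 the interval of the log2 difference was narrow, -0.09 to 0.09 around 0.00025. For Etv4 the difference was 0.21 with an interval from -5.38e-05 to 0.41 (adjusted p = 0.295, edgeR), for Spry1 0.16 (0.00128 to 0.32, adjusted p = 0.289) and for Etv5 0.12 (-0.09 to 0.33, adjusted p = 0.616). Spry2 differed by 0.02 (-0.25 to 0.29). The intervals of Spry4, -0.25 to 0.90 around 0.32, and Dusp4, -0.24 to 1.27 around 0.52, leave room for differences as large as that of Dusp5.

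**Figure D5:**
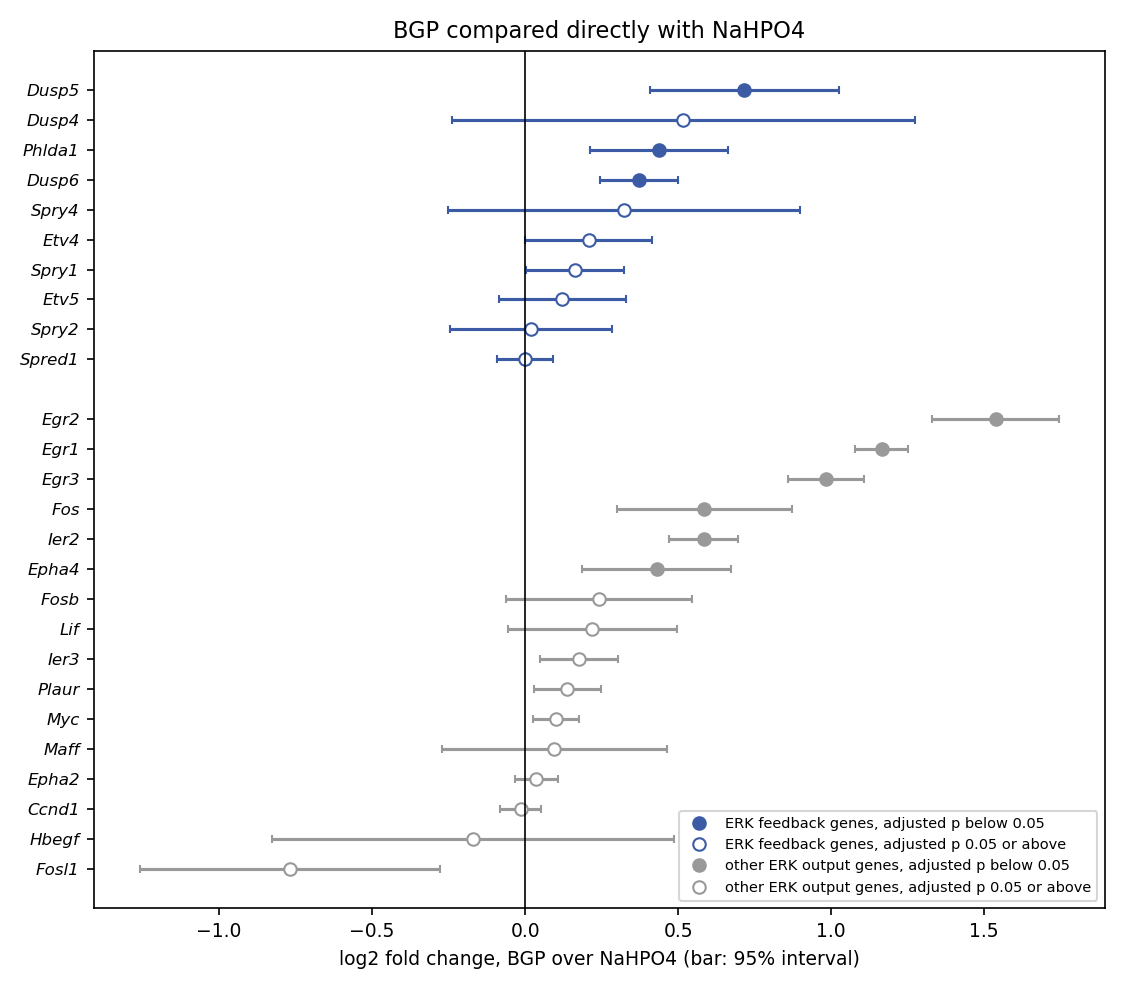
Log2 fold change of BGP over NaHPO4 (x axis) with 95% intervals for the 10 feedback genes (blue) and 16 other ERK output genes (grey), with filled points for an adjusted p below 0.05. Dusp5 leads the feedback genes at 0.72, and Egr2, Egr1 and Egr3 lead the other outputs at 1.54, 1.16 and 0.98.

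Other genes of the pathway placed these values. Of 16 further ERK output genes, BGP raised 4 by the test over Control and lowered 0, with 0 lower also at an unadjusted p below 0.05 and in DESeq2 and limma. Egr3 rose by 1.83 on the log2 scale (SE 0.0668), Egr2 by 1.37 (SE 0.102) and Egr1 by 0.89 (SE 0.0425), and Ier2 by 0.37 under the size threshold. The EGR genes encode zinc finger transcription factors of the immediate early class. With NaHPO4, 2 of the 16 were higher and 3 lower: Egr3 (log2 fold change 0.85, SE 0.0696) and the AP-1 gene Fosl1 (1.21, SE 0.252, adjusted p = 0.00133, edgeR) rose, while Egr1, Fos and Ier2 fell by 0.28, 0.45 and 0.21 on the log2 scale. The call of Fos (adjusted p = 0.0485, edgeR) was lost in DESeq2 and limma, which left 2 lower, and 5 were lower at an unadjusted p below 0.05. Between BGP and NaHPO4, 6 of 16 were higher with BGP, 5 of them called, and 0 lower in this test, DESeq2 or limma, though 1, Fosl1, was lower in edgeR's likelihood ratio and exact tests. The called genes were Egr2 (1.54, SE 0.102), Egr1 (1.16, SE 0.0427), Egr3 (0.98, SE 0.0611), Fos (0.59, SE 0.141) and Ier2 (0.58, SE 0.0554). The median of the 16 was 0.18, -0.07 and 0.20 in BGP versus Control, NaHPO4 versus Control and BGP versus NaHPO4. Over all tested genes, 1.86% were higher and 0.665% lower with BGP, and 3.43% and 3.95% with NaHPO4. Between the phosphates 3.33% were higher with BGP and 2.05% lower, and 0.38% were called higher. This list was chosen with earlier results of these data known, so its counts are no independent evidence.

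Egr1 and Egr2 were thus higher with BGP and not with NaHPO4, which lowered Egr1, and Egr3, like Dusp6, was higher with both and further with BGP. Mean levels were 103 ± 5.08, 191 ± 12.0 and 85.1 ± 2.49 CPM for Egr1 (SD, n = 3) in Control, BGP and NaHPO4. For Egr2 they were 7.91 ± 1.08, 20.6 ± 2.10 and 7.09 ± 0.511 CPM, and for Egr3 28.9 ± 2.65, 103 ± 11.6 and 52.2 ± 4.15 CPM. Fosl1 had 1.14 ± 0.376, 1.57 ± 0.139 and 2.68 ± 0.537 CPM, the highest mean being that of NaHPO4.

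Of 10 other regulators of receptors and of the ERK pathway, BGP raised 2 by the test, against 1.86% of all tested genes. Trib1, which encodes a pseudokinase, had 3.30 ± 0.421 CPM in Control, 7.85 ± 0.475 with BGP and 4.49 ± 0.841 with NaHPO4, a log2 fold change of 1.25 for BGP over Control (SE 0.150, adjusted p = 3.23e-07, edgeR) and of 0.81 for BGP over NaHPO4 (SE 0.140, adjusted p = 0.000157). Errfi1, an inhibitor of the EGF receptor, was 0.17 higher with BGP (adjusted p = 0.00246) and fell by 0.25 with NaHPO4 (adjusted p = 3.53e-06, edgeR), and differed by 0.42 between them (adjusted p = 6.44e-11). With NaHPO4, Lrig1, which restrains ErbB receptors, also fell by 0.36 (adjusted p = 0.00979).

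Few close relatives of the members passed the test. Of 7 other MAP kinase phosphatases 5 were tested, and 0 were called in any comparison. Over all tested genes 0.556% were called with BGP, 0.716% with NaHPO4 and 0.585% between the phosphates, in either direction. Most lists as short as these would hold 0 at such shares, so the counts show nothing particular to the relatives. With BGP the smallest p was that of Dusp16 (log2 fold change 0.15, adjusted p = 0.496, edgeR). Dusp1, a nuclear phosphatase of the immediate early class, had 16.9 ± 1.15 CPM in Control, 16.8 ± 0.200 with BGP and 13.5 ± 0.283 with NaHPO4 (SD, n = 3), and it fell by 0.32 on the log2 scale with NaHPO4 (adjusted p = 0.00856, edgeR) and was 0.32 higher with BGP than in that condition (adjusted p = 0.0117). Spred2 and Spred3, the tested relatives of Spred1, did not pass in any comparison, with Spred2 at 0.13 with BGP (adjusted p = 0.270) and 0.15 with NaHPO4 (adjusted p = 0.108) and Spred3 at -0.06 between the phosphates (adjusted p = 0.883). Likewise 0 of 6 other ETS factor genes passed, the smallest p values being those of Elk4 with BGP (0.11, adjusted p = 0.302), Elk3 with NaHPO4 (0.13, adjusted p = 0.0760) and Ets1 between them (0.09, adjusted p = 0.634). These results are from the same edgeR fit. At an unadjusted p below 0.05, the ETS genes numbered 1 higher with BGP, 2 higher and 1 lower with NaHPO4, and 0 between the phosphates, and DESeq2 and limma passed 0 of the ETS and of the tested Spred relatives. Of the MAP kinase phosphatases, 0 reached an unadjusted p below 0.05 with BGP, 1 with NaHPO4 and 3 between the phosphates.

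Genes of the ERK cascade itself were also counted. Of 21 genes, among them Grb2, Sos1 and the ERK gene Mapk3, 0 passed with BGP or between the phosphates. With NaHPO4 1 passed, the receptor adaptor Frs2, which fell by 0.12 on the log2 scale (adjusted p = 0.0201, edgeR). Over all tested genes, 1.86% were higher and 0.665% lower with BGP, 3.43% and 3.95% with NaHPO4, and 3.33% and 2.05% between the phosphates. At such shares few of any 21 genes would pass, so these counts show nothing particular to the cascade. Mapk3 had log2 fold changes of -0.09 with BGP and -0.06 with NaHPO4. At an unadjusted p below 0.05, 2 were lower with BGP, 2 higher and 1 lower with NaHPO4, and 2 higher with BGP than with NaHPO4, and DESeq2 and limma passed 0, 1 and 0. RNA levels do not report the phosphorylation of these kinases.

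For the 4 genes called with BGP, the tested genes outside the list with the most similar profile over the 9 libraries were sought by the root mean square difference of log2 CPM after centring each gene. Dusp6 was closest to Sema7a, a membrane-anchored semaphorin, at 0.0767, then to Fam20c, a kinase of secreted proteins, at 0.106, and to the adaptor gene Sh3bp2 at 0.135. Spry4 was closest to Sema7a (0.129), Ccn2 (0.178) and Fam20c (0.179). Phlda1 was closest to Ank, a gene of pyrophosphate transport, at 0.158, then to Sema7a (0.206) and the cytokine subunit gene Il12a (0.216). Etv4 was closest to Prkg2, a cGMP-dependent kinase, at 0.212, to Ank at 0.232 and to Gm42793 at 0.249. Sema7a had mean levels of 73.0, 164 and 121 CPM in Control, BGP and NaHPO4. These genes were picked for their likeness over the same 9 libraries, so a shared order of conditions follows from the choice.

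Several members overlap genes on the opposite strand, and whether strand was used in counting is not given in the sources used here. In the later annotation, exons of Gm42922 cover 909 bases of Spry1 with 3 to 17 counts per library, those of Gm28592 cover 727 bases of Phlda1 with 0 to 3 counts, and those of Gm50394 cover 555 bases of Dusp5 with 0 to 4 counts. For Dusp6, exons of Gm34921 (0 counts) and Gm56965 overlap 94 and 685 bases. Gm56965, and the transcripts Gm62623, Gm39392 and Gm59753 that overlap exons of Spry2, Etv4 and Etv5 by 564, 312 and 636 bases, were not analysed here. Reads from both strands of those stretches cannot be told apart if strand was ignored.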

How the data were processed

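RNA was measured by sequencing of stranded poly(A) libraries from 9 samples, 3 per condition, with conditions and replicate numbers taken from the sample labels. The authors processed the reads in the AIR software with FastQC, mapped them to GRCm39 with an Ensembl annotation, and deposited a table of whole-number read counts per gene, without normalization. The aligner, the counting program and the use of strand are not given in the sources used here. The authors also deposited a TMM-scaled table, a signal in which the counts of each library are multiplied by 1 factor between 1.01 and 1.32, which was used for gene names and for 1 alternative. Columns belonging to other studies numbered 0.

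Testing started from the count table. In edgeR 4.0.16, filterByExpr with a count minimum of 10 removed low genes, libraries were scaled by TMM, and glmQLFit and glmQLFTest were run on all 9 libraries with condition as the only term. Adjusted p values are Benjamini-Hochberg over the 13679 tested genes. As in the study's methods, genes were called at an adjusted p below 0.05 and an absolute log2 fold change above 0.5. Standard errors were derived from the quasi-likelihood F statistic. That test draws the variance of each gene toward a trend over all tested genes, so p-values and standard errors do not give a member's own replicate spread. Over the members, the coefficient of variation of CPM, counting noise included, was 6.51% to 25.8% in Control. It was 5.32% to 24.8% in BGP and 4.43% to 19.1% in NaHPO4. CPM values are TMM-normalized and were divided by the union of annotated exons where genes are compared. Each pair of replicates differed by more than counting noise, with a common biological coefficient of variation of 3.64%. The script was tested on simulated counts with known changes.

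For positions and starts, a more recent GENCODE annotation on GRCm39 was used, in which 54749 of the 55416 gene IDs were found. Windows around canonical starts were read from the GRCm39 genome. The window of 1 other gene with a CArG box is not reported here.

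The members, the lists and the rule for naming genes were chosen with earlier results of these data known. All 10 members are named. From each pathway list and comparison, up to 4 called genes with the largest log2 fold change are named, or else the gene with the smallest p. The 3 genes nearest in profile and the genes overlapping a member are also named. Other genes given from the lists (Ier2, Lrig1, Grb2, Sos1, Dusp7 and Etv1) were chosen after their values were seen.

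Alternatives were DESeq2 1.42.0, the exact and likelihood ratio tests of edgeR, limma 3.58.1 on log2(value + 1) of the deposited TMM table, other scalings and filters, only the 6 libraries compared, the replicate block, other size thresholds, and each library left out in turn. R 4.3.3, Python 3.11.15, pandas 2.3.3 and matplotlib 3.10.9 were used.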

Additional observations from a re-analysis of the deposited data

How the results depend on the processing

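The called members were 4, 3 and 1 in BGP versus Control, NaHPO4 versus Control and BGP versus NaHPO4. Without a minimum log2 fold change they were 7, 5 and 3, and with a minimum of 1 they were 4, 2 and 0, the NaHPO4 count without Dusp6. Of 567 log2 fold changes over the alternatives, 529 kept direction and side of the threshold, 20 lost the threshold, 2 gained it and 16 changed sign. All sign changes were of Spry2, or of Spred1 between BGP and NaHPO4, with values near 0. With a library left out, Spry2 ranged from -0.0752 to 0.175 with BGP over Control, from -0.0942 to 0.156 with NaHPO4 over Control and from -0.0764 to 0.137 between the phosphates, and Spred1 from -0.046 to 0.0567 between the phosphates. In that last comparison Spry2 was -0.002234 with limma and -0.007829 with total counts, and Spred1 -0.01627 with limma, -0.02672 with total counts and -8.8e-05 without a filter. Spry4 with NaHPO4 passed in the likelihood ratio test (adjusted p = 0.0445, edgeR). The cause was not tested.

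Whether replicate numbers pair the libraries was not settled. Deviations from the condition means correlated by -0.0092 to 0.0426 between libraries of the same number and by -0.0456 to 0.0239 between others. Between Control and NaHPO4, libraries of the same number gave 0.0301, 0.0426 and 0.0409, above all others, of which the highest was 0.00218. Values of the same and of other numbers overlapped between BGP and either other condition. Adding the replicate number as a block term gave 4, 3 and 1 called members and changed no call. Dusp4 could not be tested with at least 10 counts in every library, and Dusp4 and Spry4, with 8 to 41 counts, are limited by depth.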

Other observations

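The 181 tested genes whose window holds a CArG box, as Dusp5 and Egr2 do, were counted after their values were seen, and carry no test. Between BGP and NaHPO4, 14 of them (7.73%) were higher with BGP at an adjusted p below 0.05 in edgeR and 5 (2.76%) lower, beside 3.33% and 2.05% of all 13679 tested genes. Of the 181 genes, 5 were called, all higher with BGP. Dusp5 and Egr2, which prompted the count, are among those 5, and a link between the box and the response was not tested. In BGP versus Control, 6 (3.31%) were higher and 1 (0.552%) lower, beside 1.86% and 0.665% of all genes, with 3 called, all higher. In NaHPO4 versus Control, 6 (3.31%) were higher and 12 (6.63%) lower, beside 3.43% and 3.95%, with 1 called higher and 1 lower. The median log2 fold change of the 181 genes was 0.000909 between the phosphates, so most of them did not follow Dusp5.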
